A study of Mus musculus with 75 samples.

Results

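The classical cadherins and the protocadherins were followed as a family of 85 genes among the 14261 genes of the deposited table. They were all genes whose symbol was Cdh and a number or began with Pcdh, except Pcdh8. Of these, 28 were genes with a locus of their own: 4 type I classical cadherins, 13 type II classical cadherins, 4 delta-1 protocadherins, 4 delta-2 protocadherins, and Cdh13, Pcdh15 and Pcdh20. The other 57 were clustered protocadherins, 14 of the alpha, 21 of the beta and 22 of the gamma cluster. All 85 passed the filter on low values in every test.

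The RNA came from visual cortex of 8-week-old C57BL/6 mice and was pulled out on tagged ribosomes (RiboTag). Each mouse was heterozygous for a Cre allele (Pv-, Sst-, Vip-, Emx- or Gad2-Cre) and for Rpl22-HA, an allele that gives an HA tag to a ribosomal protein in the cells that express Cre. The 5 lines are called Emx, Gad2, PV, SST and VIP here. Emx-Cre is active in excitatory neurons of the cortex and also in glia of the same lineage, Gad2-Cre in inhibitory neurons in general, and the other 3 in separate classes of inhibitory neuron, so that the Gad2 line also holds cells of those classes. Mice were exposed to light for 1 h, 3 h or 7.5 h after dark housing, or were kept in standard housing, and these groups were set against mice kept in the dark. Each library was a pool of 3 mice, and each of the 25 groups had 3 libraries, except that 2 were used for dark SST and for standard SST. All values below are normalised signals, which are gene reads divided by a factor per library. They are not corrected for gene length unless a level is given per kilobase. In such bulk RNA, fewer cells of a type and less RNA per cell cannot be told apart.

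Cadherins are membrane proteins that bind their like on neighbouring cells through extracellular repeats held rigid by calcium, and classical cadherins are tied inside the cell to actin through catenins. Type I members include N-cadherin (Cdh2), found at most synapses, whereas type II members have expression restricted to particular neurons and layers and can bind within subgroups of the family. Clustered protocadherins are made from tandem variable exons, each with its own promoter, that are spliced to constant exons shared within the alpha or the gamma cluster. Most variable exons are chosen at random in each neuron, and the resulting combination gives the cell a surface identity used in self-avoidance of dendrites. The C-type isoforms at the 3' end of the alpha and gamma clusters are under separate control, and in mice Pcdhgc4 is known to be needed for the survival of cortical interneurons.

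Depth was 7.28 to 52.3 M gene reads per library with a median of 24.8 M, and it differed between conditions: 14.6 ± 5.26 M at 7.5 h (SD, n = 15) against 33.2 ± 9.18 M in the dark (n = 14). The defining markers Slc17a7, Gad2, Pvalb, Sst and Vip were each at the level that the line's name asks for. Glial and excitatory RNA was not absent from any line. The summed signal of 6 astrocyte markers had a median of 156376 in Emx, 12442 in Gad2, 53113 in VIP, 18376 in SST and 11860 in PV. For 6 excitatory markers the medians were 118464 in Emx, 17740 in Gad2, 58108 in VIP, 23144 in SST and 20083 in PV. No marker of these lists was at 0 throughout a line, and their part in the differences below was not tested. Values of single genes and of the beta cluster below 1000 reads were whole reads in 2578 of 2578 cases, within 0.1 read. In the alpha and gamma clusters this held for 186 of 939 and 257 of 1330 values, about the 20% that chance gives. The alpha and gamma values had therefore been divided among isoforms that share exons, and each of them is uncertain to that extent.

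The lines were compared, PV, SST and VIP each with the mean of the other two, with limma on log2(signal + 1) over all 73 libraries, and a gene was called at a 5% false discovery rate (Benjamini-Hochberg) and a log2 difference of at least 1 in either direction. In Emx against Gad2, 22 members were called, 7 higher and 15 lower, where 25.4% of all 14213 genes tested were called, 15.1% higher and 10.3% lower. That is 25.9% of the members, close to the share of all genes. The median log2 difference was −0.32 over the members and −0.01 over all genes. In PV against SST and VIP, 26 members were called, 3 higher and 23 lower, where 18.8% of all genes were called, 6.16% higher and 12.6% lower. Here 78 of 85 members lay below 0, with a median of −0.70 against −0.03 over all genes, of which 48.1% lay above 0. In SST against PV and VIP, 11 members were called, 9 higher and 2 lower, against 8.89% of all genes (5.16% higher, 3.74% lower), with a median of 0.11. In VIP against PV and SST, 30 members were called, 23 higher and 7 lower, against 19.5% of all genes (12.7% higher, 6.73% lower), and 71 of 85 lay above 0 with a median of 0.62. For SST and VIP the median over all genes and their share above 0 are not given here. By count of members called, beside the shares of all genes, the family thus sat low in PV and high in VIP. These are largely the same result, since the PV, SST and VIP differences of a gene cancel out. By summed signal the beta and gamma clusters were also lower in PV than in VIP. The alpha cluster ran the other way, averaging 12986 in PV and 7425 in VIP.

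Among single genes, the most uneven across lines was Pcdh18, a delta-2 protocadherin. Its lowest, median and highest signals were 2254, 2596 and 3113 in SST, and 1143, 1586 and 1990 in VIP. In PV they were 41.4, 57.1 and 133, in Emx 17, 32.8 and 72.0, and in Gad2 730, 896 and 1124. SST, VIP and Gad2 libraries overlapped neither with each other nor with the low PV and Emx libraries, and the ratio of the highest to the lowest line mean was 73.8. The log2 difference was 3.07 (SE 0.12) in SST against PV and VIP, −5.00 (SE 0.11) in PV against SST and VIP, and −4.77 (SE 0.13) in Emx against Gad2. Adjusted p was at most 1.04e-31 in these comparisons (limma).

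By that ratio Pcdh20 (15.3) and Cdh4 (15.1), described further on, came next, and then Cdh9 (14.3). Cdh9 and Cdh13 were, like Pcdh18, highest in SST. Cdh9, a type II cadherin which in mice helps form synapses of hippocampal mossy fibres, had signals of 2250, 3001 and 3809 in SST (lowest, median and highest). It had 591, 688 and 948 in PV, 169, 277 and 523 in VIP, 119, 201 and 355 in Emx, and 912, 1125 and 1510 in Gad2. SST stood clear of every other line, while Gad2 overlapped with PV and VIP with Emx. The log2 difference was 2.77 (SE 0.11) in SST against PV and VIP and −2.51 (SE 0.12) in Emx against Gad2. Cdh13 (T-cadherin, which is anchored by a lipid and lacks the cytoplasmic tail that binds catenins) had 9496, 12149 and 15457 in SST, against 2043, 3548 and 4424 in PV and 1247, 1760 and 2222 in VIP. It was also higher in SST, by 2.37 (SE 0.08) on the log2 scale.

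The promoters of Pcdh18 and Cdh9 are shown because these genes had the largest differences in SST, and they differ in base composition. They run from 250 bases before to 50 bases after the start, 5' to 3' on the gene's strand, from RefSeq (build GRCm38.p6), with CG dinucleotides in capitals. The Pcdh18 window is chr3:49757267-49757566 on the minus strand, and the Cdh9 window is chr15:16728665-16728964 on the plus strand.
Pcdh18: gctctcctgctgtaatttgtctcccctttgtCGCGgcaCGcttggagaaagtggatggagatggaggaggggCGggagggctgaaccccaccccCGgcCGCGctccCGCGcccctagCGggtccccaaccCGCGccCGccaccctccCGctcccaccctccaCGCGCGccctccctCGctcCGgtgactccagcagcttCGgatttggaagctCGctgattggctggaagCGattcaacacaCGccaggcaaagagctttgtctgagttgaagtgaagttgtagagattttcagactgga
Cdh9: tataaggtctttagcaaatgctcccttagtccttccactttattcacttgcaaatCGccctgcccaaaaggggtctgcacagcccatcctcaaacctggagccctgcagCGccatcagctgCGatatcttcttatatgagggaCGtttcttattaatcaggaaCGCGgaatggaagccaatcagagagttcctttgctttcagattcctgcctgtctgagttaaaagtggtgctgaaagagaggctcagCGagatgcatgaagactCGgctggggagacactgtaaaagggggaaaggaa
The Pcdh18 window holds 23 CG and 63.0% G and C, and the Cdh9 window 8 CG and 48.7%. Over all 32851 windows of the table the median was 7 CG and 52.7%. Windows were found for 19 member genes, 22 windows in all, and were searched on both strands for 4 motifs. TGACG, the core of the site bound by CREB-type factors, was in 4 of the 22, those of Pcdh10, Cdh8 and Pcdh9, against 20.8% of all windows. The Pcdh9 windows overlap, at chr14:93890630-93890929 and chr14:93890620-93890919, so 1 site may be counted in each. TGANTCA, the AP-1 motif, was in none of the 22, against 7.81% of all windows. TAATTA was in 1 (Cdh7) against 5.29%, and TATAAA in 1 (Pcdh15) against 13.6%.

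Among the type I classical cadherins, Cdh4 and Cdh2 were lower in PV than in each of SST and VIP. All 4 of the class were called lower in PV against the mean of SST and VIP, beside 12.6% of all genes. In SST against the mean of PV and VIP 3 were called higher, beside 5.16% of all genes. Cdh4 (R-cadherin) had 77.7, 124 and 203 in PV, against 1325, 1944 and 2480 in SST and 772, 1030 and 1469 in VIP. No PV library reached the lowest of any other line, and the log2 difference was −3.50 (SE 0.08) in PV against SST and VIP. Cdh2 had 1181, 1669 and 2027 in PV, against 2273, 3366 and 3930 in SST and 2315, 3394 and 3804 in VIP. PV libraries lay below all SST and VIP libraries for Cdh2, by −1.01 (SE 0.09). Cdh1 (E-cadherin) and Cdh15 (M-cadherin) were near the floor, with medians of 9.90 and 9.22 in PV, against 38.1 and 51.1 in SST and 14.2 and 15.1 in VIP. For neither of them did PV and VIP differ at the 5% false discovery rate. The calls of Cdh1 and Cdh15 in PV were each lost in 1 of 3 fits that left out a replicate number.

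The 13 type II classical cadherins were split. In PV against SST and VIP 1 was higher and 5 were lower, beside 6.16% and 12.6% of all genes. In SST against PV and VIP 3 were higher and 2 lower, beside 5.16% and 3.74%. In VIP against PV and SST 5 were higher and 3 lower, beside 12.7% and 6.73%. In Emx against Gad2 4 were higher and 3 lower, beside 15.1% and 10.3%. Cdh18 was the type II gene raised in PV: it had 1413, 1762 and 2029 in PV, against 500, 736 and 820 in SST and 327, 424 and 634 in VIP, a log2 difference of 1.68 (SE 0.07). Cdh20 was low in SST, with 126, 160 and 230 there, against 561, 868 and 1132 in PV and 808, 1164 and 1993 in VIP (log2 −2.63). Cdh6 was high in VIP, with 189, 320 and 510, against 40.5, 118 and 209 in PV and 19.6, 48.2 and 96.6 in SST (log2 2.12).

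Neighbouring type II genes had different patterns. Cdh6, Cdh9, Cdh10, Cdh12 and Cdh18 belong to a run of type II genes on chromosome 15, and the first 2 differed in opposite directions in Emx against Gad2: 1.98 (SE 0.18) for Cdh6 and −2.51 for Cdh9. By mean level, Cdh6 was highest in Emx, Cdh9 in SST, Cdh10 in VIP, Cdh12 in Emx and Cdh18 in PV. On chromosome 1, Cdh20 was lowest in SST whereas Cdh7 was highest there, with 1510, 2107 and 3481 in SST, 1495, 1787 and 2634 in PV and 480, 646 and 1014 in VIP. Cdh7 libraries of SST and PV overlapped, and all of them lay above those of VIP. Cdh7 was also lower in Emx than in Gad2, at 109, 165 and 290 in Emx against 1038, 1339 and 1886 in Gad2 (log2 −2.96, SE 0.11).

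Among members higher in Emx than in Gad2, Cdh19 had the largest difference, with signals of 53.0, 63.6 and 121 in Emx (lowest, median, highest) against 0, 5.31 and 26.2 in Gad2 (log2 3.50, SE 0.30). The groups did not overlap. The oligodendrocyte list, 6 of 6 markers found, summed to 52423 to 74009 in Emx against 4558 to 6388 in Gad2, and the astrocyte list, 6 of 6 found, to 130547 to 197414 in Emx against 10954 to 62400 in Gad2. No marker of either list was at 0 in these lines, and the part of glial RNA in the Cdh19 difference was not tested. Cdh11 (OB-cadherin) was also higher in Emx, by 1.04 (SE 0.12), as was Cdh22, by 1.18 (SE 0.17), with 139, 266 and 497 in Emx against 81.2, 118 and 159 in Gad2.

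The delta protocadherins held some of the highest levels of the family. Per kilobase of exon, Pcdh9, a delta-1 protocadherin, averaged 868 in Emx, 919 in Gad2, 1161 in PV and 924 in SST, among the 3 highest members of each of those lines. In VIP it was lower, with a log2 difference of −1.54 against PV and SST. Pcdh10, a delta-2 protocadherin that takes part in activity-dependent synapse elimination, was the highest member per kilobase in VIP at 940. Pcdh7 was the most even member, with a ratio of 1.39 between its highest and lowest line means. Pcdh11x was higher in SST, with 2752, 3720 and 4435 there, against 650, 802 and 1097 in PV and 839, 1103 and 1719 in VIP (log2 1.91). Pcdh20 marked VIP in the opposite sense to PV: it had 985, 1349 and 1936 in VIP, against 41.3, 86.7 and 149 in PV and 144, 210 and 305 in SST, without overlap (log2 3.31 in VIP against PV and SST).

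**Figure D1:**
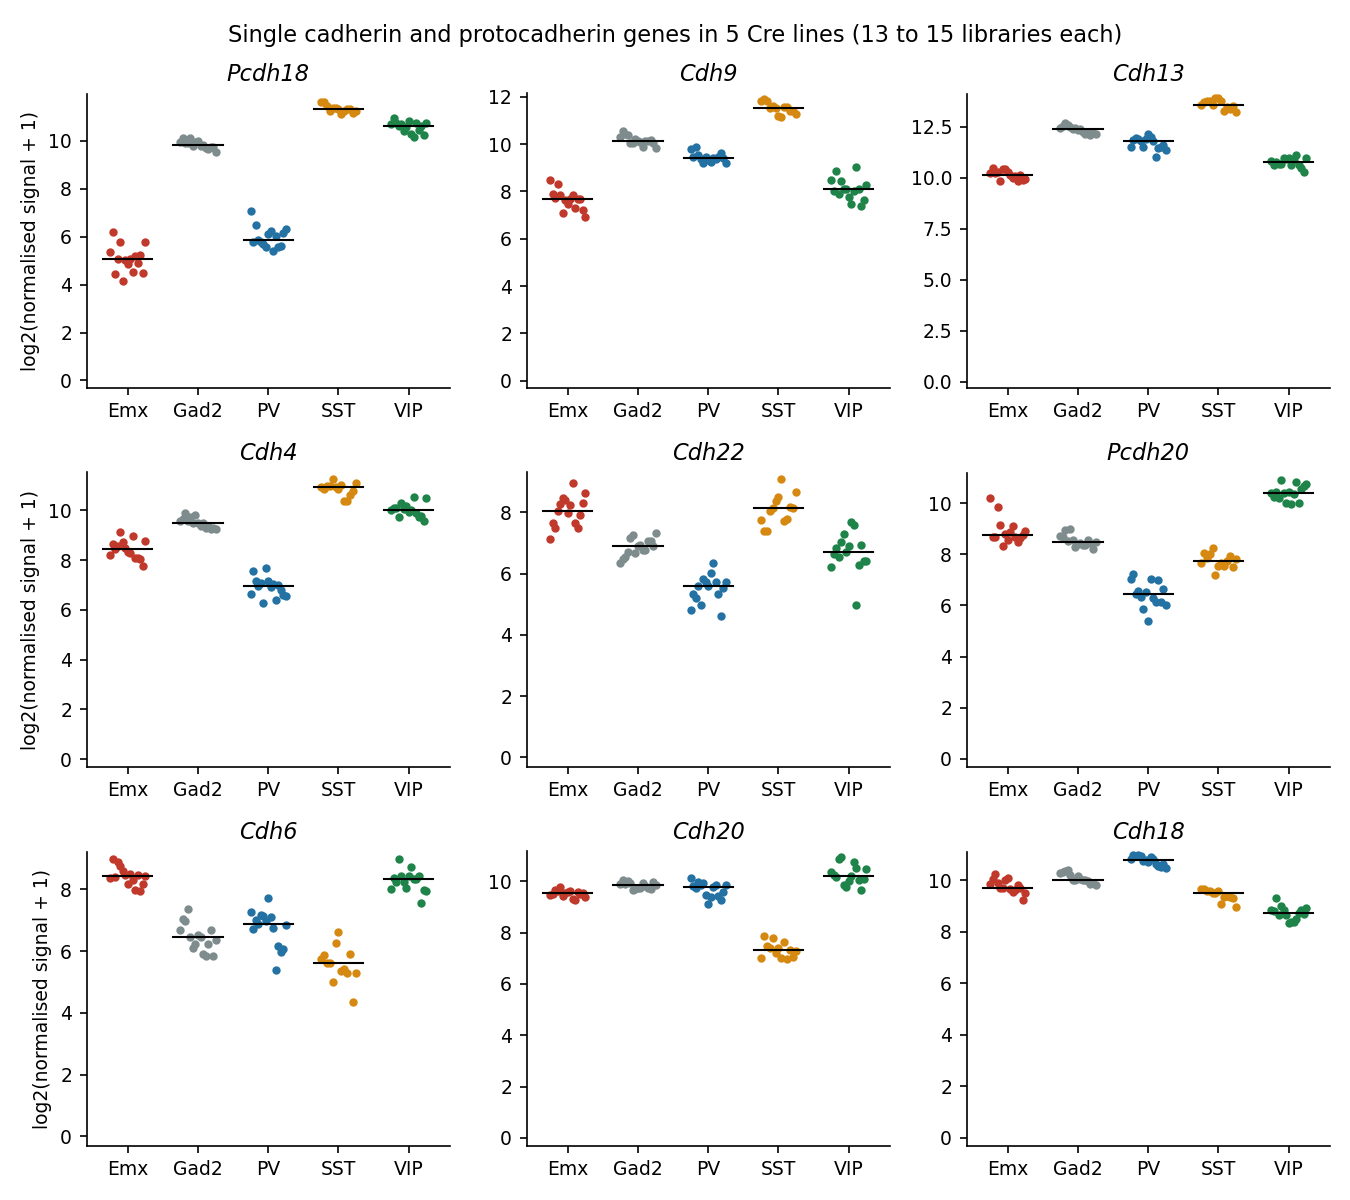
Signal of 9 single genes, as log2(signal + 1), in each of the 5 lines; each point is a library and each bar the median of a line. Pcdh18 is near the bottom in Emx and PV and highest in SST, Cdh9 and Cdh13 are highest in SST, Pcdh20 in VIP and Cdh18 in PV.

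The clustered protocadherins differed between lines by cluster. The beta cluster was lower in Emx than in Gad2 for 21 of 21 genes, of which 4 were called lower, beside 10.3% of all genes. In VIP against the mean of PV and SST 21 of 21 lay above 0, of which 4 were called, beside 12.7% of all genes. The smallest of these was Pcdhb14 at 0.01, whose mean was 416 in VIP, 446 in SST and 372 in PV. Summed over genes, it averaged 3399 in Emx, 5446 in Gad2, 8155 in VIP, 5572 in SST and 4418 in PV. The 22 clustered gamma protocadherins lay below 0 in PV against SST and VIP without exception, with 10 called lower, beside 12.6% of all genes. They lay above 0 in VIP against PV and SST, with 10 called higher, beside 12.7% of all genes. The gamma total averaged 18424 in Emx, 11991 in Gad2, 19410 in VIP, 14304 in SST and 8655 in PV. The alpha total ran otherwise, at 5588 in Emx, 11378 in Gad2, 7425 in VIP, 10542 in SST and 12986 in PV. In SST against PV and VIP none of the 57 clustered members reached a log2 difference of 1, the largest being 0.89, so none was called. At the 5% false discovery rate alone, 16 of them passed, and 25 had an unadjusted p under 0.05 (limma). The shares of all genes at these thresholds are not given here, so the 16 and 25 cannot be set against them.

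Most of the alpha signal, and a large part of the gamma signal, lay in the C-type isoforms. Pcdhac2, which in mice is needed for the tiling of serotonergic axons, took 60.7 ± 3.39% of the alpha signal in Emx, 72.6 ± 1.77% in Gad2, 51.9 ± 5.19% in VIP, 68.9 ± 3.14% in SST and 77.6 ± 2.25% in PV (SD; n = 13 in SST and 15 in the others, here and for the other shares). Per kilobase it was the highest member of the family in Gad2, PV and SST, at 1403, 1710 and 1233. Pcdhac1 held only 1.99 to 4.39% of the alpha signal, and was higher in PV than in SST and VIP by 1.59 (SE 0.19).

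The C-type isoforms of the gamma cluster differed between Emx and the inhibitory lines. Pcdhgc4 had 210, 369 and 475 in Emx (lowest, median, highest) against 2410, 3403 and 3870 in Gad2, and 1600, 2426 and 2860 in PV, 2289, 3723 and 4721 in SST, and 2499, 4032 and 5260 in VIP. No Emx library reached the lowest library of the other lines, and the log2 difference from Gad2 was −3.17 (SE 0.11). Pcdhgc3 and Pcdhgc5 were higher in Emx. Pcdhgc3 had 3556, 4370 and 5800 in Emx against 870, 1198 and 1484 in Gad2 (log2 1.89, SE 0.10), and Pcdhgc5 had 4391, 6675 and 9455 against 837, 1382 and 2242 (log2 2.26, SE 0.13). As shares of the gamma signal, Pcdhgc4 was 1.95 ± 0.300% in Emx, 26.8 ± 1.41% in Gad2, 21.1 ± 2.46% in VIP, 25.3 ± 2.73% in SST and 26.4 ± 1.39% in PV. Pcdhgc3 was 24.1 ± 1.37% in Emx and 10.0 ± 0.796% in Gad2, and Pcdhgc5 34.8 ± 3.81% in Emx and 11.3 ± 2.74% in Gad2. These values come from the isoforms whose reads the authors' processing had to divide.

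**Figure D2:**
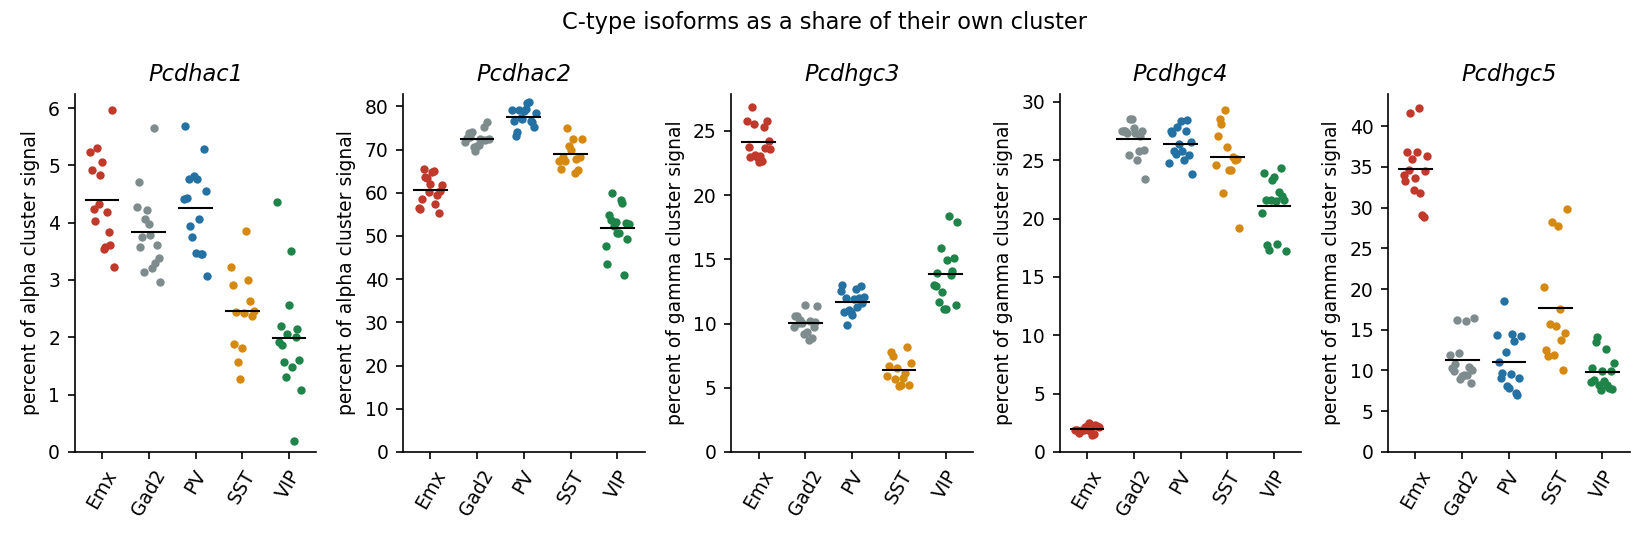
Share of each C-type isoform in the summed signal of its own cluster, in percent, by line; each point is a library and each bar the mean of a line. Pcdhgc4 holds 1.95% of the gamma signal in Emx and 21.1 to 26.8% in the inhibitory lines, while Pcdhgc3 and Pcdhgc5 are highest in Emx.

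Within the clusters the differences between lines changed with the order of the variable exons or genes. In Emx against Gad2, the log2 difference of the 12 genes Pcdha1 to Pcdha12 rose along the cluster (Pearson r = 0.91, Spearman rho = 0.87, over genes). The 19 gamma A and B genes gave r = 0.84 and rho = 0.84, with a median of −0.13 over the first 9 and 0.80 over the last 9. At the 3' end, Pcdhga12 was higher in Emx than in Gad2, by 1.05 (SE 0.12), and was at 0.99 in the fit without replicate 3. In VIP against PV and SST the gamma A and B genes gave r = 0.85 and rho = 0.86, and Pcdhga12 was again at the top, by 2.05. In PV against SST and VIP the sign was the other way (r = −0.73, rho = −0.64), with Pcdhga12 lower by −2.64 (SE 0.11). In SST against PV and VIP there was no such order (rho = −0.13). Each of these lines was set against the mean of the others, so the PV, SST and VIP differences of a gene cancel out. Without an order in SST, opposite signs in PV and VIP are therefore the same result, here and for the alpha and beta genes below. The alpha genes gave rho = −0.64 in PV against SST and VIP, 0.57 in VIP against PV and SST and 0.01 in SST against PV and VIP. The 21 beta genes, which are separate single-exon genes, gave rho = 0.44 in Emx against Gad2, 0.68 in PV against SST and VIP, −0.46 in VIP against PV and SST and 0.01 in SST against PV and VIP. In PV and in VIP the order in the beta cluster thus had the opposite sign to that in the alpha and gamma clusters. These correlations are across genes that share libraries, and in the alpha and gamma clusters also constant exons, so no p-value is given.

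**Figure D3:**
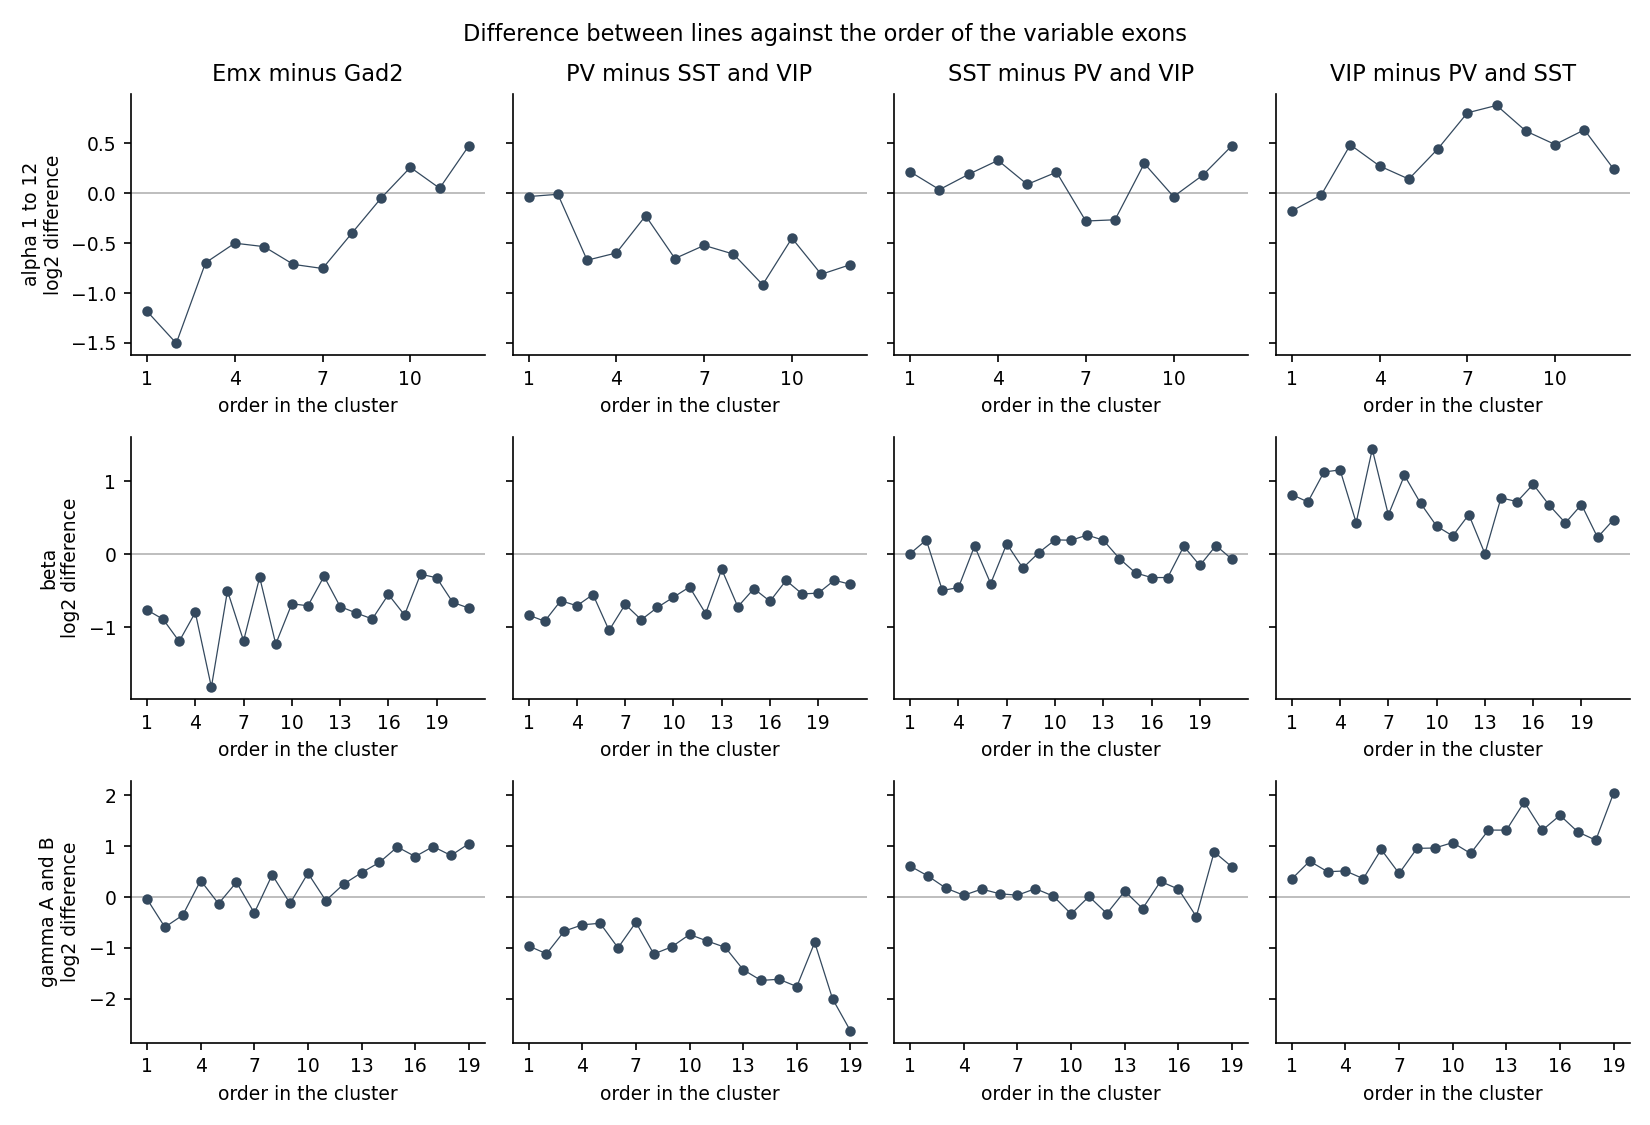
Log2 difference between lines (vertical axis) against the order of the variable exons in the alpha, beta and gamma clusters (horizontal axis, 1 at the 5' end), without the C-type isoforms; each point is a gene. Differences climb along the alpha and gamma clusters in Emx minus Gad2 and along the gamma cluster in VIP minus PV and SST, and fall along it in PV minus SST and VIP, where those of the beta cluster climb.

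Light changed few members by the test without a block. Within lines, at a 5% false discovery rate in each of 4 comparisons with dark housing, 1 member was called in Emx (4.2% of all genes called in any of the 4), 1 in SST (1.24%), and 0 in Gad2 (0.527%), PV (0.395%) and VIP (0.557%). At an unadjusted p under 0.05, 6 members passed at 7.5 h in Gad2, 2 in PV and 6 in VIP (limma). The Emx call was Pcdhb5 at 7.5 h (3.8% of all genes called), with 76.7, 90.5 and 64.9 against 129, 142 and 130 in the dark (log2 −0.79). It lay lower in all 3 lit libraries, but the call was lost in 5 of 6 fits that left out a library of these groups. The SST call was Pcdhgc5 at 7.5 h (1.11% of all genes called), with 4731, 4747 and 3570 against 1876 and 1634 in the dark (log2 1.30, adjusted p = 0.0319, limma). The lit and dark SST libraries did not overlap, and the call was lost in 4 of 5 fits that left out a library of these groups. Of these, 2 left the dark group with 1 library, which was assumed to vary like the other groups. It was also lost without replicate 2 in all SST groups.

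Libraries of the same replicate number deviated together in every line, so the number was also taken as a block. With it, members called in any of the 4 comparisons numbered 32 in Emx (29.2% of all genes), 8 in Gad2 (9.77%), 5 in VIP (3.27%), 18 in SST (18.4%) and 5 in PV (9.25%). In Emx at 7.5 h the block gave 6 higher and 24 lower members, where 25.9% of all genes were called, 12.9% higher and 13% lower. In SST at 7.5 h it gave 7 higher and 10 lower, where 17% of all genes were called, 10% higher and 6.99% lower. The 7.5 h libraries were also the shallowest, and the part of depth in these calls was not tested. The excitatory marker sum at 7.5 h averaged 115223 in Emx against 118228 in the dark, and the oligodendrocyte sum 59314 against 61847. With the block, 3 of 6 oligodendrocyte markers were called lower in Emx at 7.5 h, 1 of 6 excitatory markers higher and 1 lower, and 1 each of the astrocyte, microglia and endothelial lists lower. In SST, 1 of 6 excitatory and 1 of 6 oligodendrocyte markers were called lower. The part of these cells in the member calls was not tested.

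Pcdhgc5 rose with light in the mean over the 5 lines. At 7.5 h it had 9455, 8332 and 5477 against 7259, 5914 and 4405 in the dark in Emx, each listed by replicate number, and 2242, 1885 and 1697 against 1446, 1193 and 1014 in Gad2. In PV it had 1876, 1311 and 1051 against 1032, 746 and 493, and in VIP 2861, 2512 and 1580 against 2222, 1603 and 1307. The groups overlapped in Emx and VIP, but with numbers matched the 7.5 h library was higher in 14 of 14 pairs over the 5 lines. The mean log2 difference was 0.74 (SE 0.14, adjusted p = 5.85e-05, limma), and with the block the SE was 0.06 (adjusted p = 6.83e-17). In all, 4 members were called at 7.5 h in this mean, where 15.1% of all genes were, and 25 with the block, 29.4% of the members, where 33.3% of all genes were.

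Beside this rise, the total of the gamma cluster was 19177 at 7.5 h and 18464 in the dark in Emx, 11948 and 12368 in Gad2, 8842 and 8440 in PV, 15282 and 13413 in SST, and 18243 and 19811 in VIP. The share of Pcdhgc5 in it was 40.1% at 7.5 h against 31.5% in the dark in Emx, 16.3% against 9.88% in Gad2, 15.8% against 8.81% in PV, 28.6% against 13.2% in SST, and 12.5% against 8.57% in VIP. In standard housing PV also differed from dark housing, with 1404, 1101 and 920 against 1032, 746 and 493, called with the block (log2 0.63, adjusted p = 0.000662, limma; 2.46% of all genes called). In VIP, Pcdhgc4 went the other way at 7.5 h: it had 3516, 3527 and 2499 against 5176, 4931 and 4032 in the dark, without overlap, and was called lower with the block (log2 −0.58, adjusted p = 0.00158, limma; 1.61% of all genes called). In the same line Pcdhac2 had 5109, 4107 and 3937 against 3234, 3385 and 2711, again without overlap, and was called higher with the block (log2 0.49).

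Cdh10, a type II cadherin, fell after light. At 3 h it had 995, 827 and 958 against 1234, 1247 and 1339 in the dark in Emx, 983, 823 and 916 against 1186, 1073 and 1026 in Gad2, and 1785, 1696 and 1883 against 2544, 2834 and 2837 in VIP. In SST it had 878, 755 and 791 against 1515 and 976, and in PV, where the groups overlapped, 558, 461 and 338 against 563, 451 and 440. It was lower in 13 of 14 matched pairs at 3 h and again in 13 of 14 at 7.5 h. Over the 5 lines the log2 difference was −0.41 (adjusted p = 8.70e-06, limma) at 3 h, where it was the only member called without the block and 5.73% of all genes were called, and −0.35 at 7.5 h. In VIP the fall stood at 3 h: at 7.5 h the libraries were at 2744, 2296 and 2384 against the dark values above. The test of a difference between lines, described below, did not call Cdh10 (adjusted p = 0.0626 with the block, limma).

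Cdh22, another type II cadherin, rose at 7.5 h in the mean over lines, by 0.57 (SE 0.17, adjusted p = 0.0175, limma). It had 308, 496 and 391 against 199, 334 and 179 in the dark in Emx, and 282, 540 and 404 against 167 and 220 in SST, and was higher in 13 of 14 matched pairs. The groups overlapped in Emx and not in SST. The call was lost whenever a replicate number was left out of all lines. Pcdhb12 was the remaining call at 7.5 h, lower by −0.33 (SE 0.10, adjusted p = 0.0179) and lower in 11 of 14 pairs, and it was lost in 2 of 3 such fits. Against dark housing, none of the members was called at 1 h, where 1.96% of all genes were called, or in standard housing, where 0.753% were. At those comparisons 0 and 4 members had an unadjusted p under 0.05, a threshold at which the share of all genes is not given here.

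The promoters of Cdh10 and Cdh22 are shown as those of the members that moved in opposite directions with light. They are given as for Pcdh18 above, at chr15:18820079-18820378 on the plus strand for Cdh10 and chr2:165234688-165234987 on the minus strand for Cdh22.
Cdh10: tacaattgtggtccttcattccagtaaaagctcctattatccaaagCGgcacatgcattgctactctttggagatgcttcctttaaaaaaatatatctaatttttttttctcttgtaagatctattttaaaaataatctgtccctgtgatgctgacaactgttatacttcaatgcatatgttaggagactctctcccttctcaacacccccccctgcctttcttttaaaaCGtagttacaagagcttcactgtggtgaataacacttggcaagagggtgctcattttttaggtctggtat
Cdh22: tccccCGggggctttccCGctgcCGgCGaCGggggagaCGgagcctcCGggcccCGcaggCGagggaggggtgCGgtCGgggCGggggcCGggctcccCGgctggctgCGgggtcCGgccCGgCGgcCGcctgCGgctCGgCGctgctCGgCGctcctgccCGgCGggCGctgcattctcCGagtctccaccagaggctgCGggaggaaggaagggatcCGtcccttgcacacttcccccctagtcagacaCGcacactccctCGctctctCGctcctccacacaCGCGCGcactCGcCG
The Cdh10 window holds 2 CG and 37.7% G and C, and the Cdh22 window 38 CG and 76.3%. None of the 4 motifs was found in either.

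Some members were called with light only with the block. Pcdh17, a delta-2 protocadherin that takes part in presynaptic assembly, rose over the 5 lines by 0.28 at 3 h (adjusted p = 3.40e-06, where 18% of all genes were called) and by 0.29 at 7.5 h (adjusted p = 4.11e-07, limma with the block). It was higher in 14 of 14 matched pairs at 3 h and in 13 of 14 at 7.5 h. In SST it had 5184, 3993 and 3597 at 7.5 h against 3393 and 2193 in the dark, without overlap (log2 0.66 with the block). Cdh11 rose by 0.33 at 7.5 h (adjusted p = 1.09e-08 with the block), with 1961, 1542 and 1482 against 1268 and 957 in SST, without overlap, and 5673, 3398 and 3010 against 3316, 2509 and 2180 in Emx, with overlap. In VIP, Cdh20 had 1993, 1722 and 1438 at 7.5 h against 1223, 871 and 1072 in the dark, without overlap (log2 0.70 with the block). Of the 57 clustered members, 48 lay below 0 at 7.5 h in this mean, with a median of −0.13 against −0.02 over all genes, and with the block 9 were called lower and 2 higher, 19.3% of them beside 33.3% of all genes.

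**Figure D4:**
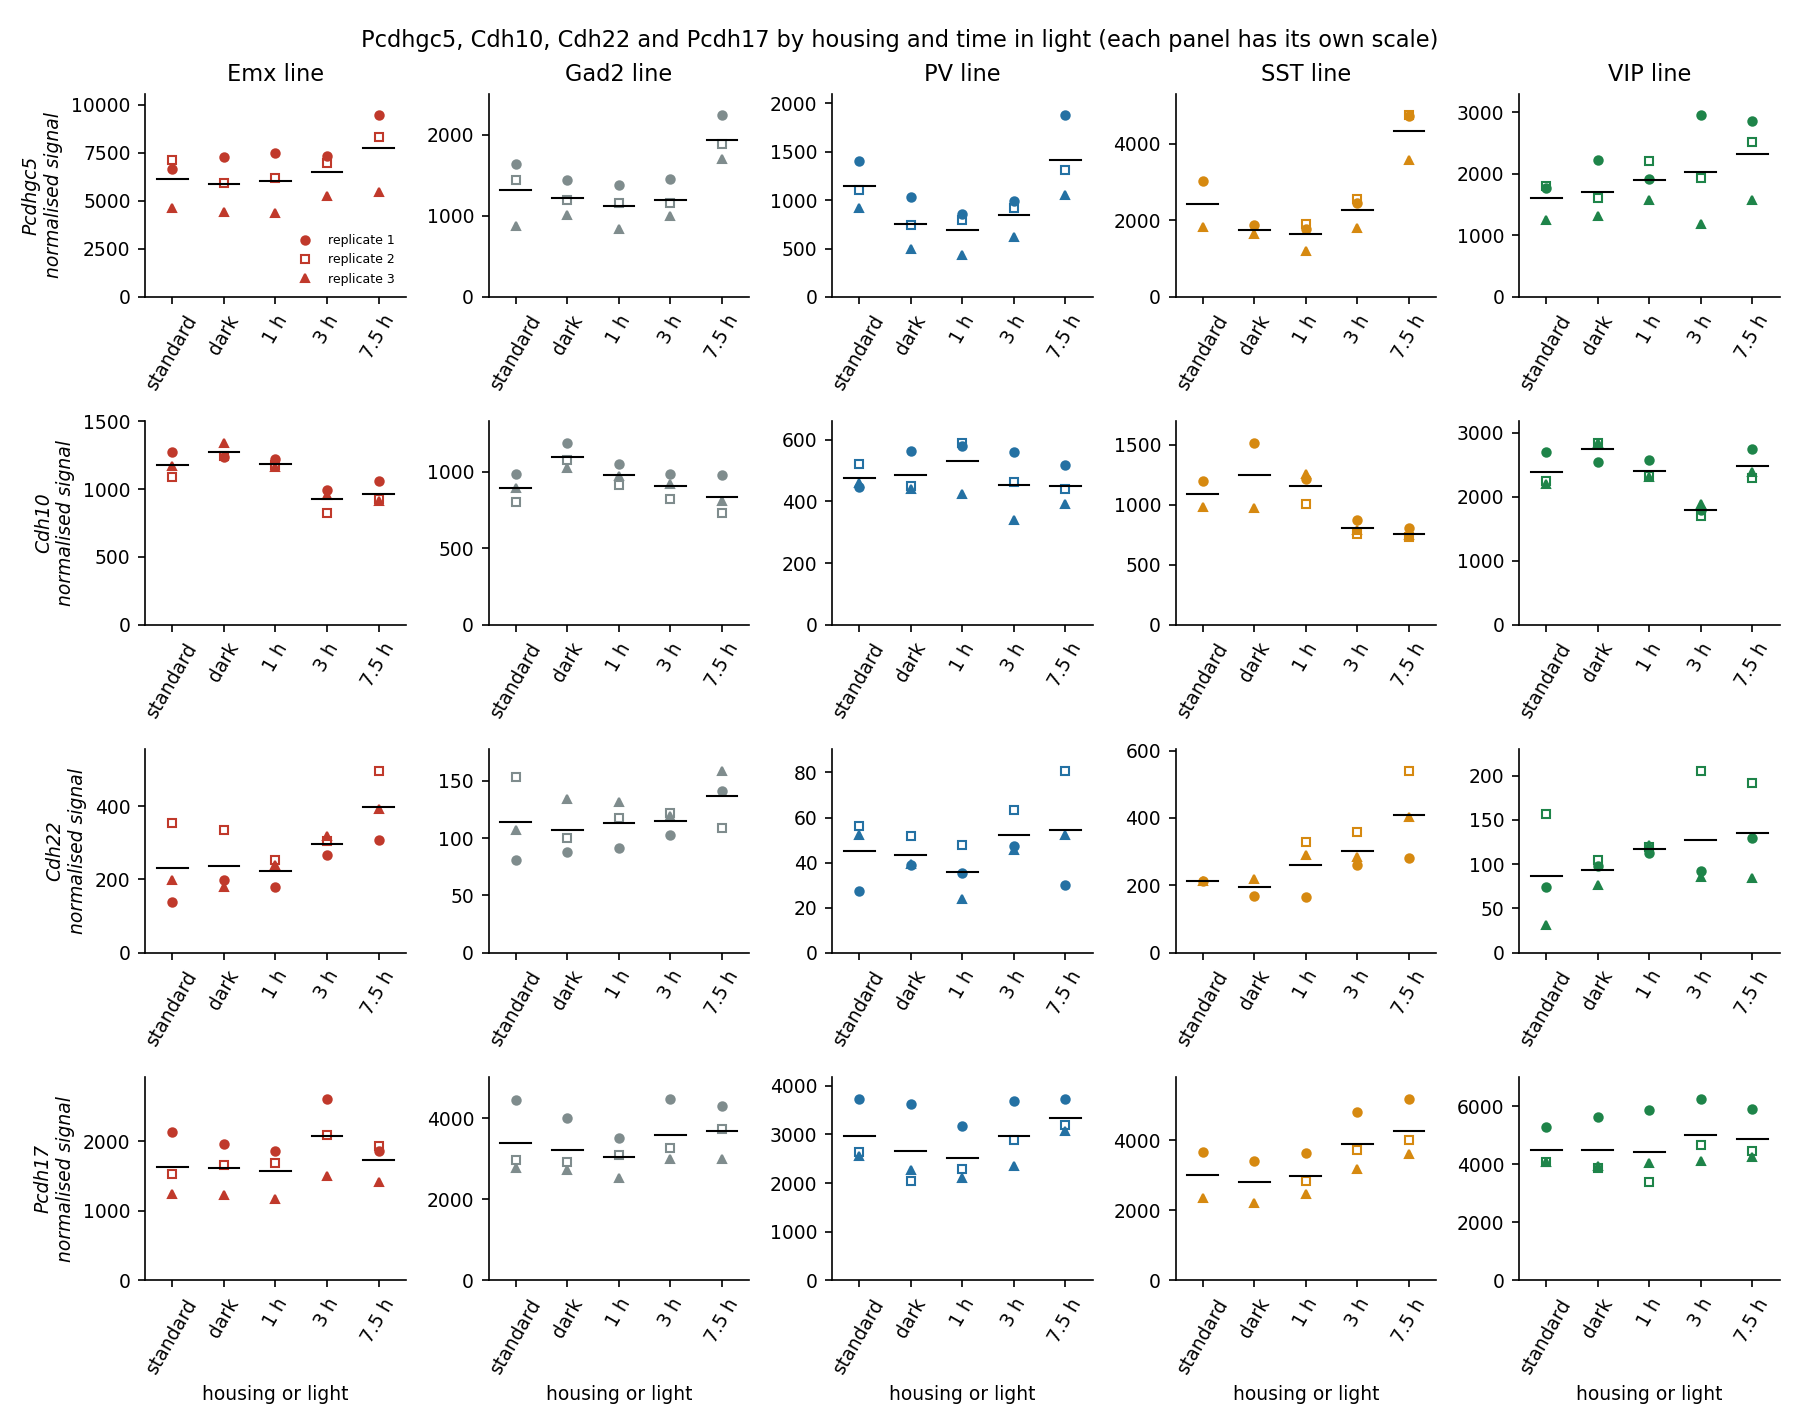
Signal of Pcdhgc5, Cdh10, Cdh22 and Pcdh17 by housing and time in light in each line; points are libraries with a symbol per replicate number, bars are group means, and each panel has its own linear scale from 0. The group mean of Pcdhgc5 is highest at 7.5 h in every line, with 4731, 4747 and 3570 in SST, and that of Cdh10 is lower at 3 h than in the dark.

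**Figure D5:**
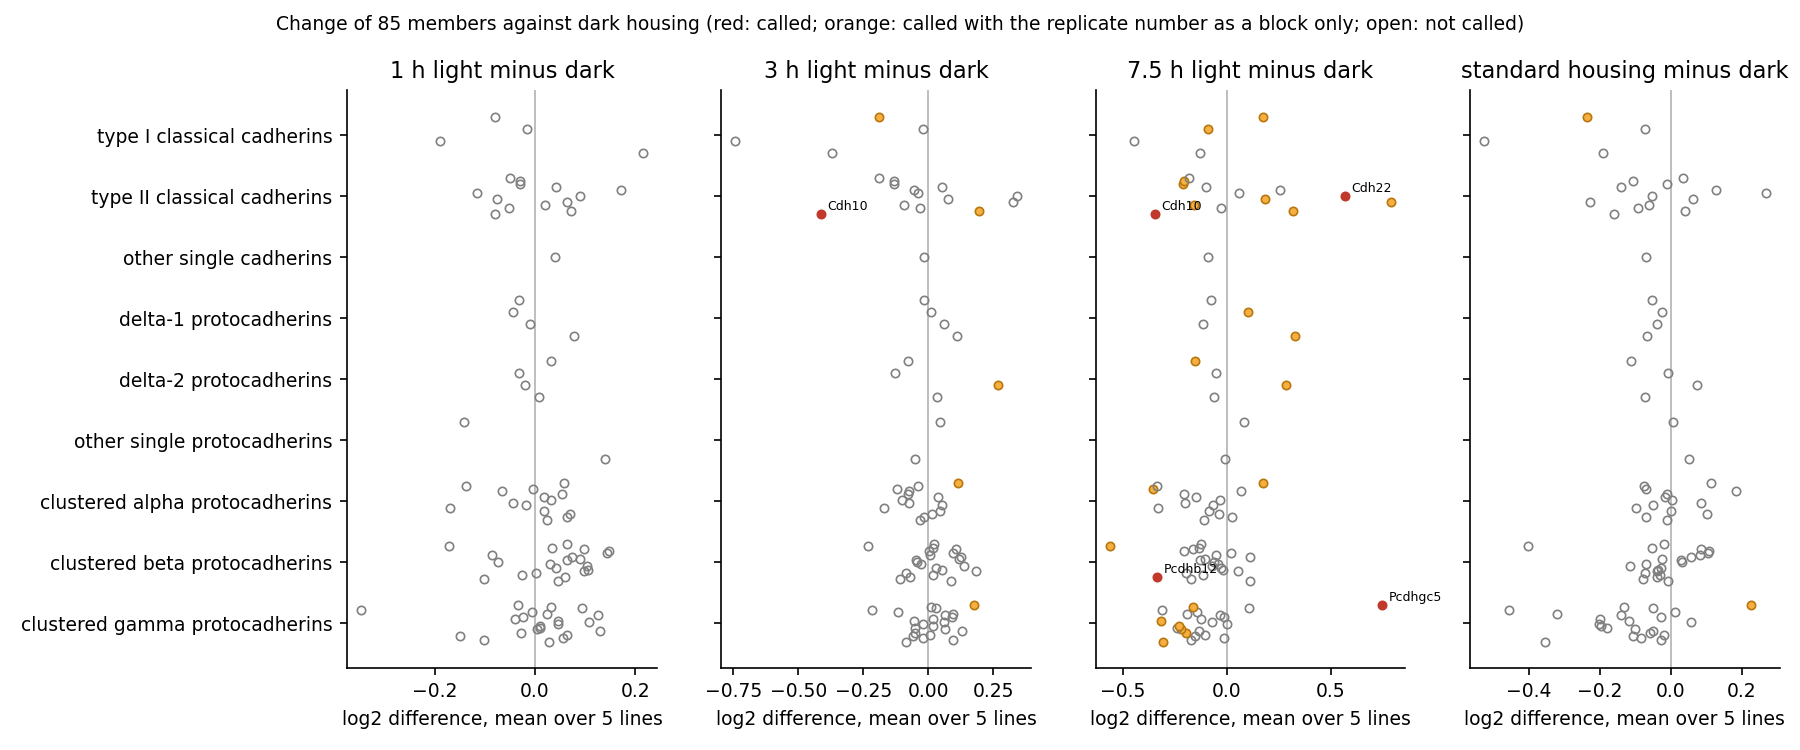
Log2 difference from dark housing, mean over the 5 lines, of all 85 members by class; each point is a gene, filled red where called without the block, orange where called only with it, and open otherwise. The points for 7.5 h hold the 4 red calls Pcdhgc5, Cdh22, Cdh10 and Pcdhb12, and 1 h has none.

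Whether light acted alike in the lines was tested by a joint term of line with time in light (an interaction). Without the block 0 members were called, where 0.317% of all genes were, and 2 had an unadjusted p under 0.05 (Cdh1 and Cdh4). The share of all genes at that p is not given here. With the block 4 were called, where 2.91% of all genes were: Cdh7, Cdh4, Cdh11 and Pcdhgc5. Cdh7 was the clearest of these. At 7.5 h it had 149, 124 and 109 against 290, 195 and 150 in the dark in Emx, and 1014, 661 and 784 against 960, 536 and 542 in VIP. The Emx groups did not overlap and the fall there was called with the block (log2 −0.69, adjusted p = 0.00288, limma), whereas the VIP libraries were each above the dark library of their number. For Cdh4 the values at 7.5 h were 557, 500 and 438 against 405, 362 and 269 in Emx, 133, 129 and 94.7 against 186, 203 and 128 in PV, and 2480, 2097 and 2186 against 1863 and 1340 in SST. Cdh4 lay higher at 7.5 h in Emx and SST without overlap, and lower in each matched pair in PV. In standard housing it was called lower in PV with the block, at 98.6, 77.7 and 83.1 against 186, 203 and 128 in the dark (log2 −0.97, adjusted p = 0.0056, limma).

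Partners of the family were read from a list of catenins and adaptors, processing and signalling proteins, the WAVE complex, control of clustered protocadherins and other cadherin relatives, of which 53 of 55 were in the table. In Emx against Gad2 9 were called higher and 4 lower, 24.5% of the list beside 25.4% of all genes, including Ptk2b, a kinase bound by clustered protocadherins, by 3.59 and the receptor kinase Ret by −3.95. Wasf1 and Brk1 of the WAVE complex, which links protocadherins to actin, were higher in Emx by 1.22 each. In PV against SST and VIP 2 were higher and 7 lower, 9 of 53 beside 18.8% of all genes, among them Wasf1 by −1.46, Ptk2b by −1.64 and the catenin Jup by −1.49. In SST against PV and VIP 6 were higher and 3 lower, 9 of 53 beside 8.89%, with the desmosomal cadherin Dsc3 at 3.26 and vinculin (Vcl) at 1.30. In VIP against PV and SST 6 were higher and 2 lower, 15.1% beside 19.5%, with the large cadherin Fat4 at 2.37 and Ptk2b at 2.01. None of the 10 genes listed for control of clustered protocadherins reached a log2 difference of 1 in these 4 comparisons. At the 5% false discovery rate alone 6 passed in Emx against Gad2, 6 in VIP, 5 in PV and 1 in SST, each against the other two, and 6, 6, 5 and 2 had an unadjusted p under 0.05 in the same order (limma). The shares of all genes without the log2 threshold are not given here, so these counts cannot be set against them. With light, the nectin Pvrl1 rose at 7.5 h in Emx, by 1.11 (adjusted p = 0.0113, limma). Over the 5 lines at 7.5 h, 3 partners were higher and 4 lower, 13.2% of the list beside 15.1% of all genes, among them the alpha-catenins Ctnna1 by −0.27 and Ctnna2 by −0.14.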

How the data were processed

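The authors deposited 1 table with a normalised signal per gene and library, made from gene read counts with 1 scaling factor for each library. Its unit was inferred: among values up to 20 reads, 92.9 to 96.6% in each library were multiples of 1 step. RNA was amplified by SPIA and read as 50-bp single ends, per the labels' protocols. The mm9 build, BWA, Cuffnorm, Cuffdiff 2.2.1, Bowtie2 2.1.0.0 and TopHat2 2.0.13 are named in the submitters' processing notes, without order or settings. Whether strand was used in counting is not given in the sources used here. Of 14284 rows, 23 named as dates were dropped, and 2 empty columns left 73 of 75 libraries. The deposited means in 25 columns lay within 0.00864% of the means computed here. Genes at 0 in 1 library whose other libraries had a median of 50 reads or more were set aside per fit, 10 to 47 genes and no member, a rule chosen after seeing the data.

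Tests used limma 3.58.1 (R 4.3.3, statmod 1.5.0; robust, trended, two-sided) on log2(signal + 1) for genes with at least 1 in at least 3 libraries. All genes were fitted and adjusted together, and each line had its own fit for light. The unit found was not the one the design assumed, so its settings were kept for signals. The fits without the block were tested on simulated data with independent noise per library. The deviation that same-numbered libraries share was not simulated, so that test does not cover it. Exon lengths are from GENCODE annotation of GRCm38, another build than that of the files, and carry no coordinates. Members and lists were chosen with earlier results of these data known. Named members were taken from those with the largest changes among the calls in each comparison, from the C-type isoforms, and others by role. Not all of the largest changes are named. Left out are, among others, Pcdhb6 in Emx against Gad2 and, with the block, Pcdha7 and Pcdha9 in Emx at 7.5 h. Pairing was checked from the deviations of libraries from their group means over 11930 genes. Same-numbered libraries correlated at 0.337 or more in Emx, 0.109 in Gad2, 0.199 in VIP, 0.410 in SST and 0.393 in PV, while no label says what the number marks. Each pool is labelled a separate biological replicate.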

Additional observations from a re-analysis of the deposited data

Results flagged for a closer look

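The change with light differed between lines for 4 members when the replicate number was a block, by the joint interaction of line and time in light (limma, adjusted over all genes). The adjusted p was 1.113e-05 for Cdh7, 0.0005155 for Cdh4, 0.000226 for Pcdhgc5 and 0.001202 for Cdh11. Without the block none of the 4 was called. Left without the SST line, whose dark and standard groups lack number 2, the block gave 8 members. Pcdhgc5 was then near the threshold at an adjusted p of 0.047 (limma). With all 5 lines and the block 2.91% of all genes were called. The share in the fit without SST is not given here, so the 8 cannot be set against it. At 7.5 h against dark, with the block, the log2 difference of Pcdhgc5 was 0.40 in Emx, 0.68 in Gad2, 0.43 in VIP, 1.20 in SST and 0.92 in PV. For Cdh11 it was 0.56, 0.12, 0.37, 0.63 and −0.04 in the same order, for Cdh4 0.54, −0.10, 0.43, 0.51 and −0.52, and for Cdh7 −0.69, −0.06, 0.30, −0.40 and −0.10.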

How the results depend on the processing

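The counts of members called between lines stayed within 1.5 times under every alternative run: leaving out a replicate number from all lines gave 22 to 24 members in Emx against Gad2, 24 to 27 in PV, 11 to 12 in SST and 30 to 31 in VIP. The light calls did not hold in number. With the replicate number as a block, members called were 32 in Emx, 8 in Gad2, 5 in VIP, 18 in SST and 5 in PV. In the mean over lines they were 6 at 3 h (18% of all genes), 25 at 7.5 h (33.3%) and 2 in standard housing. The share of all genes in standard housing with the block is not given here. For the interaction they were 4, and 8 without the SST line, where the share of all genes is not given. Quantile normalization gave 0 in Emx, and the SST line without replicate 2 gave 0; the cause was not tested. Without the block, leaving out a library gave 0 to 1 in Emx and in SST and 0 to 0 in Gad2, PV and VIP. Leaving out a replicate number gave 0 to 0 at 1 h and in standard housing, 1 to 2 at 3 h, 2 to 5 at 7.5 h, and 0 to 0 for the interaction. No result changed its direction, and the other alternatives for single members kept 445 values on their side of the threshold, with 32 crossing to called and 3 to not called. An edgeR fit on recovered reads, which was planned, was not run, since too few low values were whole reads. Depth at 7.5 h and in standard housing was less than in the dark, and the part of depth in the light results was not tested.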
